A study of Saccharomyces cerevisiae with 44 samples.

Results

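Ty2 is a family of long terminal repeat (LTR) retrotransposons of budding yeast, *Saccharomyces cerevisiae*. The 10 Ty2 genes described here are the GAG and GAG-POL genes of 5 elements, 10 of the 7127 features of the deposited count table. They were chosen by their row identifiers, and all 10 were found and passed the filter on low counts in each fit. YCL020W is the GAG gene and YCL019W the GAG-POL gene of the element YCLWTy2-1 on chromosome III. YDR210W-A and YDR210W-B belong to YDRWTy2-2 on chromosome IV, and YDR261W-A and YDR261W-B to YDRWTy2-3 on the same chromosome. YGR161W-A and YGR161W-B belong to YGRWTy2-2 on chromosome VII, and YLR410W-A and YLR410W-B to YLRWTy2-1 on chromosome XII. In each of the last 4 pairs the name ending in A is GAG and the name ending in B is GAG-POL. The reference genome holds 13 Ty2 elements with 20 annotated genes in the table, of which the other 10 genes served for comparison. The number and position of Ty2 copies in the strain used are not given in the sources used here.

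A Ty element copies itself through RNA. Its RNA is read into Gag, the protein of the virus-like particle, and into a Gag-Pol fusion that also carries protease, integrase and reverse transcriptase, and the fusion needs a shift of the reading frame near the end of GAG. Ty1 and Ty2 are close relatives, more alike in pol than in GAG. Their transcription starts in the 5′ LTR and is known to depend on sequences in the LTR and inside GAG. Factors described for Ty1, for Ty2 or for both include Ste12, Tec1, Mcm1 and Gcr1. Ste12 is the transcription factor of the mating pheromone response, Tec1 its partner in filamentous growth, and Kar4 a pheromone-induced factor that works with Ste12 on a subset of mating genes.

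All strains derived from VM05, a MATa strain with mutations in ade1 and bar1, in the cyclin genes cln1, cln2 and cln3, and in his2, trp1 and ura3, with leu2:LEU2::GAL-CLN3 at LEU2. Its own G1 cyclin genes are deleted and its only CLN3 is driven by GAL, so every group here, the wild type (WT) included, was held in G1 by 3 h in glucose at 30 °C. The deletion strains were kar4::KanMX (ACY01), ste12::KanMX (ACY02) and ime4::KanMX (ACY13), written kar4Δ, ste12Δ and ime4Δ below. IME4 encodes an RNA methyltransferase known from meiosis. Cultures were sampled after the arrest or after a further 60 min with 20 µM alpha-factor, the pheromone that a cells respond to. Batches 1 and 2 held WT, kar4Δ and ste12Δ at 0 h and after alpha-factor with 4 libraries per group, of which batch 1 gave replicates 1 and 2, and batch 2 the others. Batch 3 held WT and ime4Δ, untreated and treated, and batch 4 held WT alone, with an untreated control kept for 60 min and 2 libraries per group. The sample titles name batches 1 and 2, but name no batch for the samples called batches 3 and 4 here. The labels list 4 replicates per group in batch 3, but replicates 1 and 3, and replicates 2 and 4, differed by less than the sampling noise in 8 of 8 pairs and were counted as 1 library each, which left 2 per group and 36 libraries in all. The labels do not say whether replicates came from separate cultures, so p-values measure only the spread between these libraries, which may be technical.

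Total counts per library lay between 4248572 and 22586646, and the 10 Ty2 genes took 0.835% to 4.06%, Ty1 genes 8.95% to 30.5% and ribosomal RNA 0.0200% to 8.43%. Levels are given in CPM (counts per 1000000 counts) after TMM scaling, which takes its factors from a trimmed mean of M-values. KAR4 lay between 0.00460 and 0.278 CPM in the 8 kar4Δ libraries, against 39.9 to 487 CPM in the 8 WT libraries of the same batches. STE12 lay between 0.246 and 6.31 CPM in the 8 ste12Δ libraries, against 177 to 340 CPM in WT. IME4 lay between 0.347 and 0.541 CPM in the 4 ime4Δ libraries, against 2.88 to 276 CPM in the WT libraries of batch 3. The deleted gene was thus low where its label says it was deleted. The 5 markers of a cells (STE2, MFA1, MFA2, STE6 and AGA2) summed to more than the 4 markers of alpha cells (MF(ALPHA)1, MF(ALPHA)2, STE3 and SAG1) in 36 of 36 libraries, with sums of 519 to 5534 CPM and of 86.1 to 3601 CPM. The markers themselves shifted between strains. The median log2 fold change of the 4 alpha markers was 3.91 in treated kar4Δ against treated WT. That of the 5 a markers in ste12Δ against WT was -2.35 at 0 h and -3.10 after alpha-factor.

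The sequence around the start of GAG is shown for 3 of the 5 elements because the genes of these elements fell by different amounts in ste12Δ. Each window runs from 250 bases before the GAG start codon to 50 bases from its first base on, on the plus strand of the R64 reference (the sacCer3 build), and lies within the element, so that most of it is LTR. The first window is at chrIII:84852-85151, the second at chrIV:871862-872161 and the third at chrIV:981212-981511. Capitals mark GGAAG, the opposite-strand reading of the Gcr1 core CTTCC, the 7 letters TGAAACG, and the Tec1-type letters CATTCC or CATTCT.
YCLWTy2-1: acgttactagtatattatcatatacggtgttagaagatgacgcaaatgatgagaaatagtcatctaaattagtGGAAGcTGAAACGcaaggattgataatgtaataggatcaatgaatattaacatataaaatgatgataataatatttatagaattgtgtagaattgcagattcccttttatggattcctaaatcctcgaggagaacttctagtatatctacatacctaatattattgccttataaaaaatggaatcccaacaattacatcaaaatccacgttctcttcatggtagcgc
YDRWTy2-2: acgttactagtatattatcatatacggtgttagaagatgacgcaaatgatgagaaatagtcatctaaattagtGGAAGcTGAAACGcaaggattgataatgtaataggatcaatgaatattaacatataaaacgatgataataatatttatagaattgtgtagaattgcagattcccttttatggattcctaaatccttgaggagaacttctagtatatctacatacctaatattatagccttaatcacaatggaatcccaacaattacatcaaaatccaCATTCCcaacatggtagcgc
YDRWTy2-3: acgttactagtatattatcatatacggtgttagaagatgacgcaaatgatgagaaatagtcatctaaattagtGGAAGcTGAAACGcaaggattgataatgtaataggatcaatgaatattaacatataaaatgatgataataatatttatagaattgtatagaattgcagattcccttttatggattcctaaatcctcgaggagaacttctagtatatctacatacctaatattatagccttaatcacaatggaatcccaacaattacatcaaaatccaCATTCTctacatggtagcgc

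Against the window of YCLWTy2-1, that of YDRWTy2-2 differed at 11 of 300 bases and that of YDRWTy2-3 at 8, while the windows of YGRWTy2-2 and YLRWTy2-1 differed at 3 and 2. Counted from 1 at the 5′ end of the window, T238A, T245A, A247C and A249C were found in both YDR elements and in neither of the others, all within the last bases before the start codon. The frameshift site at the end of GAG was the same in all 5 elements. At chrIII:86382-86408 in YCLWTy2-1 it reads as follows, with the slippery heptamer in capitals.
YCL019W: cgaacttagtCTTAGGCcagcaacaga

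Motifs were searched on both strands, and a match is a string of letters, not a shown site. TGAAACA, the pheromone response element bound by Ste12, was in 0 of the 5 windows, against 7.71% of 6430 windows of this length over all annotated genes. TGAAACG, 1 base from it, was in 5 of 5, against 4.56% of all windows. It was searched after the windows had been read, and the windows are near copies of each other. Its 5 of 5 is therefore a description, not an enrichment. CTTCC was in 5 of 5 against 46.5%, CATTCT in 3 of 5 against 19.4%, and CATTCC in 1 of 5 against 11.0%. Over the first 1500 bases of each element, TGAAACA was in 31 of 31 Ty1 elements and 0 of 13 Ty2 elements, while TGAAACG was in 29 of 31 and 13 of 13. Over whole elements TGAAACA was found in all 13 Ty2 elements too, in the 5 described here from base 3052 (YLRWTy2-1), 3775 (YCLWTy2-1, YDRWTy2-3 and YGRWTy2-2) or 4488 (YDRWTy2-2) of the element on, inside the pol region.

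A read of 50 bases can rarely be placed on 1 of these genes. Each GAG gene is 1317 bp long and lies inside its GAG-POL gene of 5314 bp, and how the authors' counting treated reads with several places or several features is not given in the sources used here. Of all stretches of 50 bases, 16.9% of YDR261W-A occur at a single place in the reference genome, 6.94% of YDR210W-A, 2.52% of YCL020W, and none of YGR161W-A, YGR161W-B and YLR410W-A. The other GAG-POL genes lay between 1.56% (YCL019W) and 7.79% (YDR261W-B). No stretch of the 5 GAG genes occurs in a Ty1 element, whereas 15.7% to 17.8% of the stretches of each GAG-POL gene do. The 10 genes are therefore not independent readouts, and a row's level is a level of reads assigned to that copy.

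**Figure D1:**
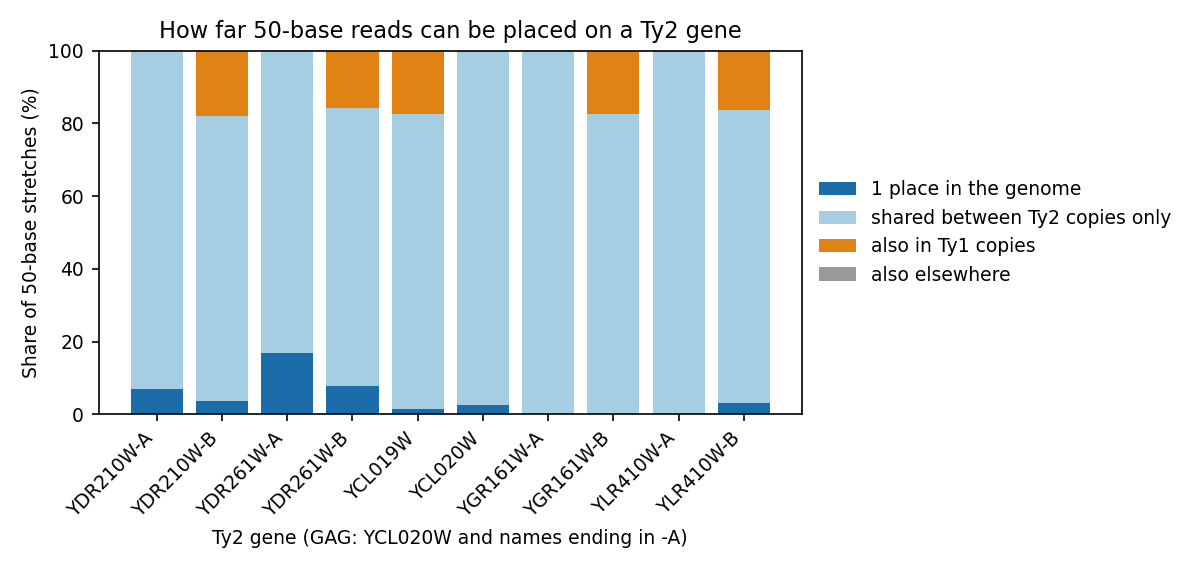
Share of all 50-base stretches of each Ty2 gene (in %) that occur at 1 place in the reference genome, at several places in Ty2 copies only, in Ty1 copies as well, or elsewhere. YDR261W-A has the largest unique share, 16.9%, and the 5 GAG genes have no stretch in common with Ty1.

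The summed level of the 10 genes was 10940.0, 12402, 14864 and 14911 CPM in the WT libraries at 0 h. After alpha-factor it was 24531, 18465, 18478 and 16534 CPM, above each of the 0 h values. In kar4Δ at 0 h it was 14775, 17221, 16189.9 and 14147 CPM, of which 2 lay within the range of WT at 0 h and 2 above it. In kar4Δ after alpha-factor it was 38388, 51950.0, 39787 and 40495 CPM, the highest 4 of the 36 libraries. In ste12Δ it was 9125, 8590.2, 7466 and 8039 CPM at 0 h and 10384, 9339.7, 7372 and 9125 CPM after alpha-factor. The ste12Δ ranges overlapped each other and lay below every WT library of batches 1 and 2. These are bulk cultures, in which fewer cells carrying a transcript and less transcript per cell cannot be told apart.

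Per kilobase, YGR161W-A had the highest level of the 10 in 36 of 36 libraries, with a median of 712 CPM per kb, and YDR210W-A the lowest in 36 of 36, with 232 CPM per kb. Between them, YLR410W-B, YCL019W and YGR161W-B had medians of 547, 538 and 526 CPM per kb, and these neighbours changed places between libraries. YCL020W followed with a median of 470.3 CPM per kb, then YDR261W-B with 391, YLR410W-A with 369.9, YDR261W-A with 316 and YDR210W-B with 269 CPM per kb. Neighbours in this order overlapped in rank over the libraries, except that YGR161W-A and YDR210W-A held the first and last place. Between its lowest and highest library each gene varied by 5.35-fold (YCL020W) to 10.9-fold (YDR261W-A).

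**Figure D2:**
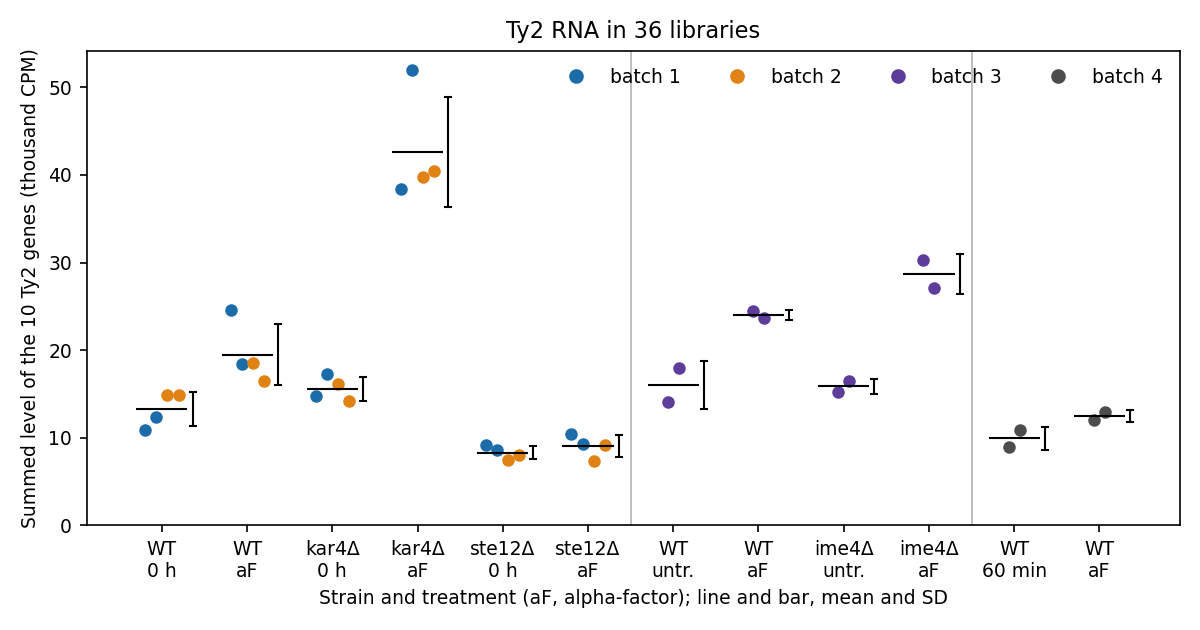
Summed level of the 10 Ty2 genes (axis in units of 1000 CPM, TMM-scaled) in each of the 36 libraries, by strain and treatment, with points coloured by batch and lines and bars for the mean and SD of each group. The 4 alpha-factor-treated kar4Δ libraries lie at 38388 CPM and above, and all 8 ste12Δ libraries lie at or below 10384 CPM.

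Ty2 RNA rose with alpha-factor in WT. In batches 1 and 2 the mean of the summed level went from 13279 ± 1951 CPM (SD, n = 4) to 19502 ± 3475 CPM (SD, n = 4), a ratio of 1.47. All 10 genes were called higher by edgeR's quasi-likelihood test with Benjamini-Hochberg adjustment over all features (adjusted p at most 0.0256), with log2 fold changes of 0.42 to 0.68 and a median of 0.55. Over all 6161 features tested, 29.0% were called higher and the median log2 fold change was 0.00. The size differed between batches. The ratio of the summed level was 1.84 within batch 1, where 10 genes were called, and 1.18 within batch 2, where 4 were called.

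YGR161W-A rose most. Its level was 663, 784, 921 and 911 CPM at 0 h and 1710.2, 1279, 1168 and 1121 CPM after alpha-factor, with no overlap. Its log2 fold change was 0.68 (SE 0.13, adjusted p = 0.000125, edgeR). YLR410W-B rose least, by 0.42 (SE 0.16, adjusted p = 0.0256, edgeR). It was the 1 of 10 genes whose groups overlapped, where 22.7% of all features were higher with no overlap, with 2091, 2193, 3158 and 2957 CPM at 0 h and 4416, 3043, 3674 and 2852 CPM after alpha-factor.

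In kar4Δ the rise was larger. The mean of the summed level went from 15583 ± 1386 CPM (SD, n = 4) to 42655 ± 6258 CPM (SD, n = 4), a ratio of 2.74, with 2.82 within batch 1 and 2.65 within batch 2. All 10 genes were called higher (adjusted p at most 3.71e-07, edgeR), with log2 fold changes of 1.24 (YLR410W-B) to 1.71 (YGR161W-A), where 33.0% of all features were called higher. The libraries of both groups were apart for all 10 genes, as for 26.8% of all features in that direction. YGR161W-A stood at 853, 1088, 1008 and 886 CPM at 0 h and at 2779, 3858, 2999 and 2970.3 CPM after alpha-factor. Replicate 2 was the highest treated library for this gene, as for the sum, and without it the ratio of the summed level was 2.54 with 10 genes called.

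At 0 h the absence of KAR4 did not change Ty2 levels past the test. None of the 10 genes was called against WT by edgeR, nor by DESeq2, and 1 of 10 had an unadjusted p under 0.05. The log2 fold changes were 0.17 to 0.26, where 12.0% of all features were called in either direction. The median was 0.46 within batch 1 and 0.03 within batch 2, with 0 genes called in each. After alpha-factor the same comparison gave 10 of 10 genes higher in kar4Δ (adjusted p at most 2.00e-05, edgeR). The log2 fold changes were 0.97 (YDR261W-A) to 1.26 (YGR161W-A), and the ratio of the summed level was 2.19. Of all features, 16.8% were called higher in this comparison, and 13.5% were higher with no overlap of libraries, as all 10 Ty2 genes were.

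YCL019W had 4365, 3326, 3393 and 3065 CPM in treated WT and 7308, 9825, 7669.9 and 7832 CPM in treated kar4Δ, a log2 fold change of 1.20 (SE 0.14). YDR210W-A had 486, 371, 377 and 356 CPM in treated WT and 784, 1091, 872 and 845 CPM in treated kar4Δ, a log2 fold change of 1.17 (SE 0.12). In both genes the lowest kar4Δ library was well above the highest WT library. YLR410W-A lay between 538 and 813 CPM in treated WT and between 1329 and 1852 CPM in treated kar4Δ. YDR261W-B lay between 2513 and 3448 CPM against 5332 to 7156 CPM, and YGR161W-B between 3145 and 4719 CPM against 7911 to 10965 CPM. YDR210W-B lay between 1659.7 and 2865 CPM against 3631 to 5289 CPM. Replicate 1 of treated WT and replicate 2 of treated kar4Δ, both of batch 1, were the highest of their groups for each of these genes.

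In ste12Δ, Ty2 RNA was lower and no gene was called for a response to alpha-factor. At 0 h the summed level was 8305 ± 714 CPM (SD, n = 4), a ratio of 0.625 to WT, with 0.759 within batch 1 and 0.521 within batch 2. All 10 genes were called lower (adjusted p at most 0.0146, edgeR), where 11.9% of all features were called lower and 9.97% were lower with no overlap, as the 10 were. Within batch 1 alone 3 were called and within batch 2 alone 10. After alpha-factor the summed level was 9055 ± 1250.0 CPM (SD, n = 4), a ratio of 0.464 to treated WT. All 10 were again called lower (adjusted p at most 8.76e-06, edgeR) and without overlap, where 28.2% of all features were called lower and 21.2% were lower with no overlap.

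Between 0 h and alpha-factor in ste12Δ the log2 fold changes of the 10 genes lay between -0.01 and 0.20. None was called by edgeR or by DESeq2 and none had an unadjusted p under 0.05, where 32.2% of all features were called in either direction. YCL020W had 383, 391, 364 and 411 CPM at 0 h and 416, 398, 364 and 470.0 CPM after alpha-factor. The groups overlapped for this gene and for each of the other 9.

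The copies fell by different amounts in ste12Δ. YDR261W-A had 352, 423, 415 and 417.5 CPM in WT at 0 h and 215, 213, 161 and 177 CPM in ste12Δ, a log2 fold change of -1.08 (SE 0.11). After alpha-factor it had 784, 656, 558 and 564 CPM in WT and 217, 219, 144 and 183 CPM in ste12Δ, a log2 fold change of -1.74 (SE 0.11, adjusted p = 2.91e-12, edgeR). YDR210W-A fell by 1.06 at 0 h and by 1.57 after alpha-factor. The other 3 GAG genes fell by 0.53 (YCL020W), 0.65 (YGR161W-A) and 0.53 (YLR410W-A) at 0 h, and by 0.91, 1.13 and 0.95 after alpha-factor. At 0 h the log2 fold changes of the GAG-POL genes were -0.85 (YDR261W-B), -0.84 (YLR410W-B), -0.74 (YDR210W-B), -0.57 (YGR161W-B) and -0.47 (YCL019W). Among the GAG-POL genes the largest fall after alpha-factor was that of YDR261W-B, by 1.42, and the smallest that of YCL019W, by 0.86. The difference between copies was not tested.

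**Figure D3:**
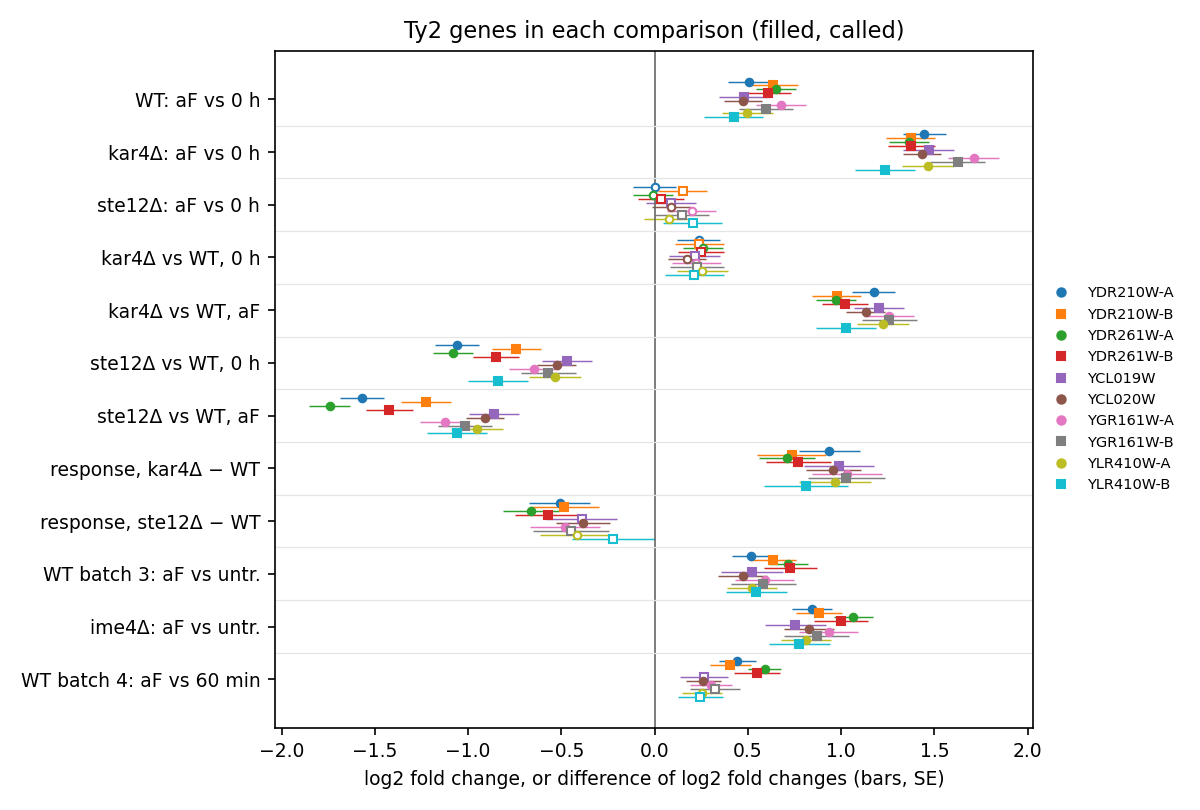
Log2 fold change of each Ty2 gene (bars, SE) in 12 comparisons, with differences of log2 fold changes in the rows marked response, circles for GAG, squares for GAG-POL, and filled symbols for genes called at an adjusted p under 0.05. In the row for ste12Δ against WT after alpha-factor, YDR261W-A at -1.74 and YDR210W-A at -1.57 lie farthest from 0.

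The 2 GAG genes with the larger fall are the ones with the largest shares of unique stretches, and the windows of their elements carry the base differences given above. These windows were shown because the falls differed, so this is a description. Whether the fall is related to either trait was not tested. Among the GAG-POL genes at 0 h, YLR410W-B, whose element lacks the differences shared by both YDR elements, fell more than YDR210W-B. Relative to YCL020W, the level of YDR261W-A was 72.2 ± 7.81 per 100 in untreated and 82.3 ± 8.06 in treated WT of batches 1 and 2 (SD, n = 4 each). It was 49.5 ± 6.81 and 46.4 ± 8.34 per 100 in ste12Δ. In all 8 ste12Δ libraries the ratio was below that of each of the 16 WT and kar4Δ libraries of both batches. YDR261W-A and YCL020W had the largest and the smallest fall of the GAG genes in ste12Δ, so a low ratio there follows from the choice of the pair. YDR210W-A gave 49.5 ± 1.82 per 100 in WT and 34.4 ± 1.29 in ste12Δ at 0 h, whereas YLR410W-A gave 79.5 ± 4.94 and 79.6 ± 13.8. In batch 4 the untreated WT libraries also had a low ratio of YDR261W-A, 50.6 and 51.3 per 100, and the treated ones 63.7 and 64.3. Whether the ratio follows the assignment of shared reads was not tested.

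**Figure D4:**
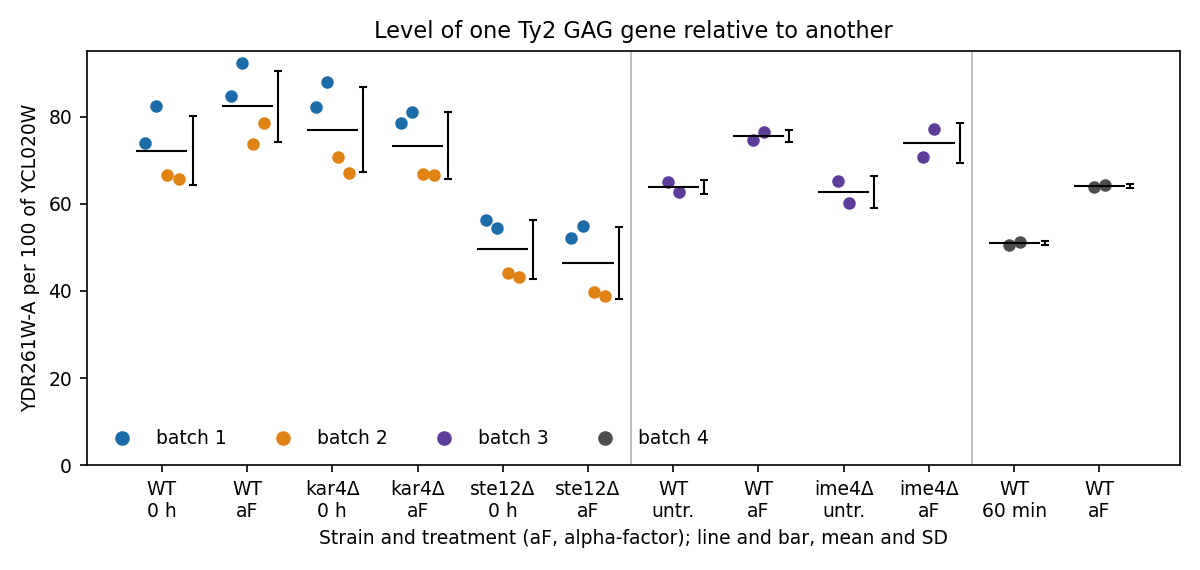
Level of YDR261W-A per 100 of YCL020W (a ratio of CPM; both GAG genes have the same length) in each library, coloured by batch, with the mean and SD of each group. The ste12Δ means are 49.5 at 0 h and 46.4 after alpha-factor, against 72.2 and 82.3 in WT of the same batches. The pair has the largest and the smallest fall of the GAG genes in ste12Δ, so the low ratio there follows from the choice.

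The responses themselves were compared between strains as differences of log2 fold changes. The response in kar4Δ exceeded that in WT for 10 of 10 genes, by 0.71 (YDR261W-A) to 1.03 (YGR161W-A), with adjusted p at most 0.0117 (edgeR), where 8.72% of all features were called in this direction. Within batch 1 alone 1 gene was called, with a median difference of 0.67, and within batch 2 alone 10, with a median of 1.19. The response in ste12Δ was below that in WT for 6 of 10 genes, by up to 0.66 for YDR261W-A (SE 0.15, adjusted p = 0.00143, edgeR), where 17.6% of all features were called in this direction. The 4 not called were YCL019W, YGR161W-B, YLR410W-A and YLR410W-B, with differences of -0.39, -0.45, -0.42 and -0.22. This count of 6 was 2 without replicate 1 of treated WT, 3 without any 1 of replicates 1 and 2 of WT at 0 h, replicates 1 and 4 of ste12Δ at 0 h and replicates 2 and 3 of treated ste12Δ, and 1 within batch 2. The response in kar4Δ exceeded that in ste12Δ for 10 of 10 genes, by 1.03 to 1.51 (adjusted p at most 0.000544, edgeR), where 23.1% of all features were called in this direction. These comparisons share their WT, kar4Δ or ste12Δ libraries.

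In batch 3 the summed level was 14066 and 17914 CPM in untreated WT and 24442 and 23633 CPM in treated WT. In ime4Δ it was 15269.6 and 16483 CPM untreated and 30294 and 27115 CPM treated. All 10 genes rose with treatment of WT, by 0.47 to 0.73 on the log2 scale (adjusted p at most 0.0240, edgeR; 27.4% of all features were called higher). The count was 5 without replicate 1 of untreated WT and 6 without replicate 1 of treated WT. All 10 rose in ime4Δ, with log2 fold changes of 0.76 to 1.07 (adjusted p at most 0.00391, edgeR; 27.6% of all features were called higher). YDR261W-A rose most in ime4Δ, from 387 and 394 CPM to 832 and 806 CPM.

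Between ime4Δ and WT no Ty2 gene was called by edgeR or DESeq2. Untreated, the log2 fold changes were -0.11 to 0.18, 0 of 10 had an unadjusted p under 0.05, and 0.0325% of all features were called. Treated, they were 0.19 to 0.41, 3 of 10 had an unadjusted p under 0.05, and 0.227% of all features were called. The libraries of treated ime4Δ lay above those of treated WT for all 10 genes, as for 26.3% of all features. The response differed by 0.23 to 0.36, 1 of 10 had an unadjusted p under 0.05, and 0.0162% of all features were called. A missed threshold with 2 libraries per group does not show that the strains acted alike.

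In batch 4 the summed level was 8997 and 10871 CPM in WT kept 60 min without alpha-factor and 12015 and 12965 CPM with it. The treated libraries were above the untreated ones for all 10 genes, as for 37.9% of all features, and 6 were called higher (edgeR), where 28.9% of all features were called higher. Called were YDR210W-A, YDR210W-B, YDR261W-A, YDR261W-B, YCL020W and YGR161W-A, of which YDR261W-A rose most, by 0.59 (SE 0.09, adjusted p = 0.000637, edgeR). The count was 2 without replicate 1 of the untreated group and 3 without either treated library. The control here waited for 60 min, which the 0 h control of batches 1 and 2 did not. The response in batch 4 minus that in batches 1 and 2 lay between -0.38 and -0.06. No gene was called for it by edgeR or DESeq2, 0 of 10 had an unadjusted p under 0.05, and 16.5% of all features were called in either direction.

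GAG lies inside GAG-POL in each element, so the levels of a pair are not separate measurements. Per kilobase, GAG was at a median of 0.858 of GAG-POL in YCLWTy2-1, 0.802 in YDRWTy2-2, 0.804 in YDRWTy2-3 and 0.719 in YLRWTy2-1. In YGRWTy2-2 it was at 1.36, and GAG was above GAG-POL there in every library (1.17 to 1.46). The summed level of the 5 GAG genes, none of which shares a stretch with Ty1, was 2505 ± 307 CPM in WT, 2938 ± 282 CPM in kar4Δ and 1544 ± 115 CPM in ste12Δ at 0 h. After alpha-factor it was 3771 ± 649, 8497 ± 1241 and 1662 ± 195 CPM in these strains (SD, n = 4 each). The order of the groups was the same as for all 10 genes.

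The 10 other annotated Ty2 genes, which share most of their sequence with these, gave the same counts in most comparisons. All 10 were called higher with alpha-factor in WT (median log2 fold change 0.50) and in kar4Δ (1.38) and higher in treated kar4Δ than in treated WT (1.14), and 9 of 10 were called lower in ste12Δ at 0 h (-0.66). For the response difference of ste12Δ against WT, 1 of the 10 was called lower, where 17.6% of all features were, against 6 of the 10 genes described here. For the batch 4 response, 3 of the 10 were called higher, where 28.9% of all features were, again against 6 of 10.

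Ty1 is the larger family. Of 61 Ty1 genes, 23 were called higher with alpha-factor in WT (median 0.29), 49 in kar4Δ (0.63) and 10 in ste12Δ (0.38), where 17.6% of all features were called higher in ste12Δ. Against treated WT, 13 of 61 were higher in treated kar4Δ (median 0.35), and 1 of 61 was called for the response difference of kar4Δ against WT (median 0.24), compared with 10 of 10 Ty2 genes (0.95). In ste12Δ at 0 h, 39 of 61 Ty1 genes were called lower and 5 higher (median -1.09), where 10.6% of all features were called higher. Ty2 counts per 100 Ty1 counts were 8.41 ± 1.11 in WT at 0 h, 9.36 ± 1.35 in treated WT and 9.12 ± 1.82 in kar4Δ at 0 h (SD, n = 4 each). They were 16.1 ± 2.46 in treated kar4Δ, where each of the 4 libraries lay at 13.3 or above. The highest of the other 32 libraries, at 12.8, was of treated ime4Δ in batch 3. The difference between the families was not tested. Ty3 is a family known to be induced by pheromone. All 4 of its genes rose with alpha-factor in WT (median 4.09) and in kar4Δ (4.08), and all 4 were lower in kar4Δ than in WT, both at 0 h (-1.02) and after alpha-factor (-1.07), where 6.14% and 21.1% of all features were called lower.

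**Figure D5:**
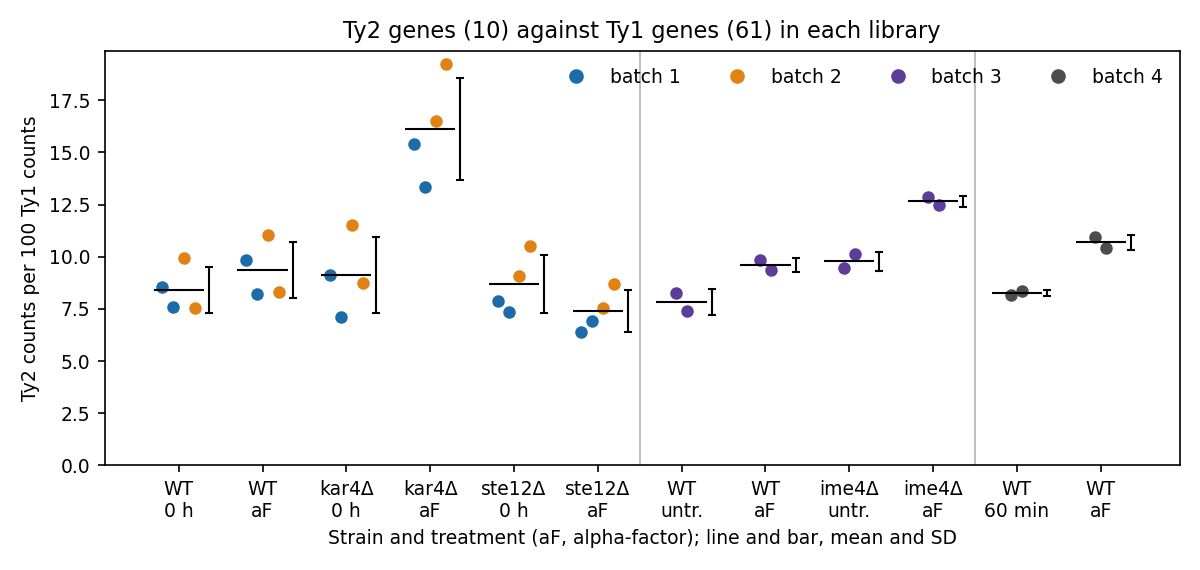
Counts of the 10 Ty2 genes per 100 counts of the 61 Ty1 genes in each library, coloured by batch, with the mean and SD of each group. The mean in treated kar4Δ is 16.1, against 9.36 in treated WT and 7.39 in treated ste12Δ.

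Of 22 genes for transcription regulators of Ty elements, 7 were called higher and 6 lower with alpha-factor in WT, and 9 and 10 in kar4Δ. Over all features 29.0% and 30.0% were called higher and lower in WT and 33.0% and 32.8% in kar4Δ. The WT shares of this list lay near the background and the kar4Δ shares above it, a difference that was not tested. STE12 itself was at 202 ± 18.0 CPM in WT at 0 h and at 326 ± 19.7 CPM once treated, and the kar4Δ values were 247 ± 20.5 and 664 ± 45.0 CPM (SD, n = 4 each). It was higher in treated kar4Δ than in treated WT by 1.03 on the log2 scale (SE 0.27, adjusted p = 0.00446, edgeR). Its response difference of 0.73 was not called (SE 0.38, adjusted p = 0.203, edgeR, in a fit that includes the ste12Δ libraries). TEC1 was at 145 ± 17.5 and 379 ± 16.3 CPM in WT, at 178 ± 21.9 and 462 ± 25.3 CPM in kar4Δ, and at 39.1 ± 3.85 and 50.9 ± 0.272 CPM in ste12Δ. Its fold change in ste12Δ against WT was -1.88 at 0 h and -2.89 after alpha-factor on the log2 scale. For the response difference of kar4Δ against WT, SNF5, of the SWI/SNF remodelling complex, was called higher (0.56), and SPT15, the TATA-binding protein (-0.26), and GCN4, an activator of amino acid synthesis genes (-0.31), lower, where 8.72% of all features were called higher and 10.2% lower.

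The repressors of Ty and hypoxic genes ROX1 and MOT3 rose with alpha-factor in WT, by 0.64 and 0.75, and in kar4Δ, by 1.06 and 0.78. GCR1 and TYE7, activators of glycolytic and Ty genes, fell by 0.39 and 0.50 in WT and by 0.35 and 0.53 in kar4Δ. Of 12 genes for factors that act on Ty RNA or cDNA, 4 were called higher and 4 lower with alpha-factor in WT and 4 and 5 in kar4Δ. The shares of all features called higher and lower were 29.0% and 30.0% in WT and 33.0% and 32.8% in kar4Δ. Whether the list differs from these shares was not tested. FUS3, the mating MAP kinase known to restrain Ty1, rose by 1.35 (WT) and 1.78 (kar4Δ), and these responses differed by 0.43 (SE 0.10, adjusted p = 0.00335, edgeR). In ste12Δ against WT, FUS3 was at -1.30 at 0 h and -2.70 after alpha-factor. KSS1, the second kinase of this pathway, rose by 1.04 in WT and 0.72 in kar4Δ, with a difference of -0.32 that was called. RTT109, a histone acetyltransferase that limits Ty1, rose by 0.57 and 1.00. DBR1, the debranching enzyme, fell by 0.30 in WT. In treated ime4Δ against treated WT, 1 of the 12 and 0 of the 22 were called, where 0.227% of all features were called.

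Over the 36 libraries, with each batch centred on its mean, the genes whose log2 level was most like the summed Ty2 level among 5219 features outside transposons were FRK1, AXL1, CNA1, RGD2 and CLB4 (Pearson's r of 0.97, 0.96, 0.96, 0.96 and 0.95). FRK1 encodes a protein kinase, AXL1 the protease that matures a-factor, CNA1 a catalytic subunit of calcineurin, RGD2 a GTPase-activating protein and CLB4 a B-type cyclin. These points share libraries and fall into the strain and treatment groups, so r describes the order of the groups. FRK1 had 109 ± 17.5 CPM in untreated and 216 ± 12.9 in treated WT of batches 1 and 2, 108 ± 11.4 and 421 ± 20.3 in kar4Δ, and 51.1 ± 3.92 and 74.0 ± 5.13 in ste12Δ (SD, n = 4 each). AXL1 had 286 ± 22.5 and 370.5 ± 12.9 CPM in WT, 325 ± 33.6 and 683 ± 19.6 in kar4Δ and 191 ± 3.47 and 189.9 ± 10.5 in ste12Δ. The genes least like it were ALD5, a mitochondrial aldehyde dehydrogenase, PYC2, a pyruvate carboxylase, and AGP1, an amino acid permease (r of -0.95 each). ALD5 had 165 ± 11.4 and 103 ± 19.5 CPM in WT, 151 ± 12.4 and 54.1 ± 11.1 in kar4Δ and 215 ± 10.5 and 212 ± 16.9 in ste12Δ.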

How the data were processed

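Per the submitters' processing notes the reads were processed with STAR, featureCounts and the sacCer3 build, with no versions or settings. Per the labels' protocols the libraries were stranded total RNA without ribosomal RNA, read at 50 nt. The deposited table holds expected counts, unscaled, with fractions, and 0 of its 44 columns lacked a sample. How the authors counted reads of repeated or overlapping genes, and whether by strand, is not given in the sources used here.

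Counts were rounded and analysed with edgeR 4.0.16 (limma 3.58.1, R 4.3.3), with filterByExpr (minimum count 10, total 15), TMM scaling, and the quasi-likelihood test with Benjamini-Hochberg adjustment over all features. A feature was called at an adjusted p under 0.05. Batches 1 and 2 were fitted together with a batch term, and batches 3 and 4 each alone; all 36 libraries were fitted together for the difference between batches. In batch 3, columns agreeing within sampling noise (chi-square per degree of freedom 0.444 to 0.701 in 8 pairs, 5.29 to 177 in 54 others) were averaged. DESeq2 1.42.0, other scalings, filters and blocks were alternatives. The fits were tested on simulated counts. Sequence searches used the R64 reference.

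Members, gene lists and motifs were chosen with earlier results of these data known. Named genes are the 10 members, the deleted genes, called regulators of both lists, and the 5 most and 3 least alike genes with a mean log2 CPM of at least 3. Libraries held 4248572 to 22586646 counts.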

Additional observations from a re-analysis of the deposited data

Results flagged for a closer look

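In 7 of 66 combinations of a group of 4 libraries with a gene or the Ty2 sum, the highest or lowest library stood far from the other 3. For independent values from 1 population chance gives about 1 in 20. Here the genes and the sum share reads and libraries, and each group spans batches 1 and 2, so that rate is only a rough guide. Of these, 4 were replicate 2 of treated kar4Δ, in batch 1. Its summed Ty2 level was 51950.0 CPM, against 38388 to 40495 CPM in the other 3, and YDR261W-A was at 1577 CPM there, YDR261W-B at 7156 CPM and YLR410W-A at 1852 CPM. Replicate 1 of treated WT, also in batch 1, had 485.8 CPM of YDR210W-A against 356 to 377 CPM. Replicate 1 of WT at 0 h had 351.8 CPM of YDR261W-A against 415 to 423 CPM. Replicate 3 of treated ste12Δ had 111.0 CPM of YDR210W-A against 139 to 142 CPM.

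The response to alpha-factor differed between strains by a test of the difference itself (edgeR's quasi-likelihood test with adjustment over all features). It was called as larger in kar4Δ than in WT for 10 of 10 genes, where 8.72% of all features were. It was called as smaller in ste12Δ than in WT for 6 of 10 genes, where 17.6% of all features were, and this count was 2 without replicate 1 of treated WT and 3 without any 1 of 6 other libraries. It was called as larger in kar4Δ than in ste12Δ for 10 of 10 genes, where 23.1% of all features were.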

How the results depend on the processing

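The counts of called Ty2 genes not named here stayed within 1.5 times their value under each alternative run (library totals, scaling without transposon and ribosomal RNA features, no low-count filter, DESeq2, groups fitted alone, no batch term, single batches, replicate block, sums or single columns in batch 3). Batch 2 alone gave 4 genes for the WT response, and batch 1 alone 3 for ste12Δ against WT at 0 h and 1 for the response difference of kar4Δ against WT. The response difference of ste12Δ against WT gave 3 with library totals, no filter, the groups fitted alone, no batch term or the replicate block, and 1 in batch 2 alone. Taking the 16 columns of batch 3 as separate replicates gave 6 genes for treated ime4Δ against WT and 2 for the response difference. The batch 4 response gave 3 with library totals, and 10 with DESeq2 or the replicate block. The cause of these changes was not tested.

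The ratio of summed levels for the WT response was 1.84 in batch 1 and 1.18 in batch 2. With library totals it was 2.31 for the kar4Δ response, 0.716 for ste12Δ against WT at 0 h and 0.590 after alpha-factor. With TMM scaling, ste12Δ against WT at 0 h gave 0.759 in batch 1 and 0.521 in batch 2. Library totals moved the median log2 fold change of all features to -0.17 in the WT response, -0.23 in the kar4Δ response, 0.21 and 0.36 in ste12Δ against WT at 0 h and treated, -0.15 in WT of batch 3, -0.29 in the ime4Δ response and -0.13 in batch 4. Over all features it moved the higher and lower calls from 1788 and 1849 to 1183 and 2523 (WT response), from 2036 and 2022 to 1329 and 2938 (kar4Δ response), from 1032 and 1299 to 705 and 1496 (treated kar4Δ against WT), from 656 and 733 to 2366 and 296 (ste12Δ at 0 h) and from 1905 and 1735 to 3650.0 and 774 (ste12Δ treated). In batch 3 it moved them from 1687 and 1704 to 1125 and 2207 (WT) and from 1697 and 1718 to 948 and 2929 (ime4Δ), and in batch 4 from 1810.0 and 1815 to 1387 and 2369. For the response differences it moved them from 537 and 630.0 to 334 and 685 (kar4Δ minus WT), from 1130.0 and 1084 to 1710.0 and 663 (ste12Δ minus WT) and from 1426 and 1588 to 819 and 2276 (kar4Δ minus ste12Δ).

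Leaving out 1 library at a time gave 9 to 10 genes for the WT response, 9 to 10 for ste12Δ at 0 h, 2 to 7 for the response difference of ste12Δ against WT, 5 to 10 for WT in batch 3 and 2 to 7 in batch 4. The other 12 counts did not move (0 in 6 of them and 10 in 6). The ratios ranged over 1.34 to 1.54 (WT response), 2.54 to 2.84 (kar4Δ response), 2.03 to 2.39 (treated kar4Δ over WT), 0.591 to 0.652 and 0.442 to 0.508 (ste12Δ over WT at 0 h and treated). Over every alternative run, not only these, the 102 single-gene calls gave 1753 values on the same side of the threshold, 107 that lost it and 0 that reversed; genes not called at first are not among them.

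Same-numbered libraries deviated together with correlations of -0.318 to 0.429 over 9 sets of pairs. It was over 0.1 in 7 sets, WT and ste12Δ included, and below 0 in kar4Δ of batch 2 and in ime4Δ, so the numbers were not taken to pair the samples. Exchanging the numbers of treated ime4Δ, an alternative added after seeing the data, left 10 genes called for both responses of batch 3. As to depth, the 10 genes held 0.835% or more of each library's counts.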
